A study of Mus musculus with 9 samples.

Results

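Trophoblast transcription factors are the regulators that set up the trophectoderm, the outer layer of the blastocyst, and the placental lineage that grows from it. The 7 genes described here, Tfap2c, Tfap2a, Cdx2, Elf5, Gata3, Hand1 and Tead4, were taken by name from the 20287 gene IDs listed in at least 1 of 9 RNA-seq libraries of mouse embryonic stem cells, and all 7 were found. The KO libraries came from Hbxip-/- E14 cells and the WT libraries from wild-type E14 cells, a line of strain 129. Hbxip, now Lamtor5, encodes a Ragulator subunit that acts in amino-acid signalling to mTORC1 at the lysosome. Each genotype was sampled in pluripotent culture, on day 4 after 96 h of LIF withdrawal, and as embryoid bodies, whose age the labels do not give. Every culture held 2 KO libraries and 1 WT library. The labels do not say whether the KO pairs were separate clones or cultures, so the p-values reflect how these particular libraries scatter, which may be technical, and the single WT libraries were assumed to vary like the KO pairs.

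In the embryo, TEAD4 with its YAP coactivator switches on Cdx2 and Gata3 in outer cells, where Hippo signalling is low. CDX2, GATA3 and the AP-2 factors TFAP2C and TFAP2A then hold the trophoblast programme, ELF5 stabilises it in trophoblast stem cells, and HAND1 drives the formation of giant cells. POU5F1 opposes Cdx2 in the inner cell mass, and embryonic stem cells normally keep the trophoblast route closed. Several of these genes also act elsewhere: Cdx2 in the posterior primitive streak and tailbud, Tfap2c in germ cell precursors, Tfap2a in surface ectoderm and neural crest, and Hand1 in extraembryonic and cardiac mesoderm.

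The 7 factors did not move as a unit in KO cells. Tfap2c was lower and Tead4 higher in KO in all 3 cultures, Cdx2 was at or near 0 in differentiating KO cells, and Hand1 was high in KO pluripotent culture alone among the 6 groups. Elf5 was near 0 everywhere. Summed over the 7 genes, the level was 28.4 to 30.3 FPKM in KO and 23.2 FPKM in WT pluripotent culture. After LIF withdrawal the sum was 10.4 to 10.7 FPKM in KO and 20.7 FPKM in WT, and in embryoid bodies 14.6 to 15.9 FPKM in KO and 32.0 FPKM in WT. FPKM scale reads by gene length and by the reads of the library, so levels can be set side by side between genes.

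**Figure D1:**
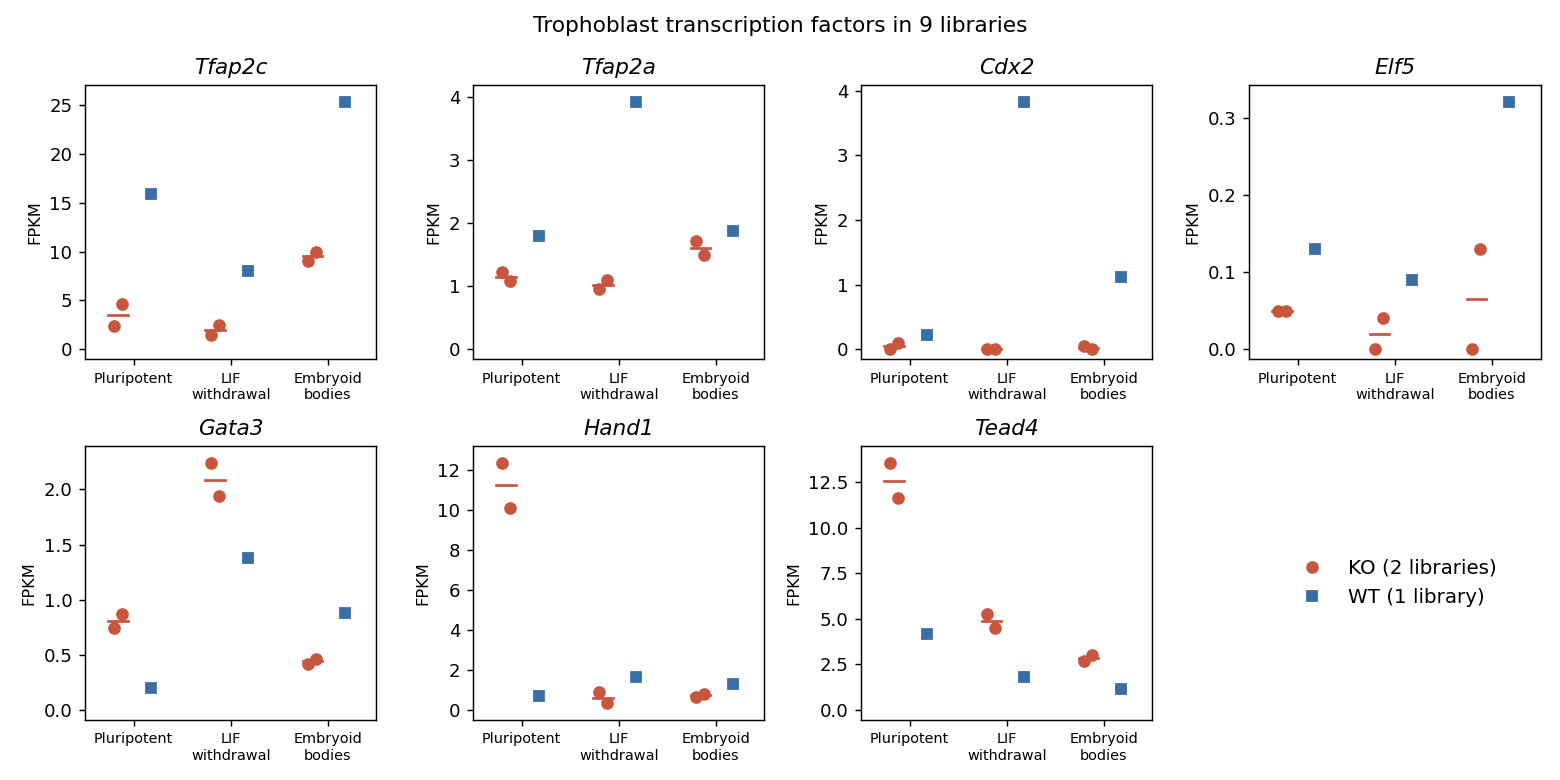
FPKM (vertical axes, from 0, a separate scale per gene) of the 7 genes in the 3 cultures. Circles are the 2 KO libraries with their mean as a line and squares the 1 WT library. Tead4 circles lie above the square in each culture, Tfap2c circles below it, and Hand1 reaches 10.1 to 12.4 FPKM in KO pluripotent culture only.

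Rounded estimated counts summed to between 10147301 and 10863866 per library, and 3 counts, the upper limit behind a listed 0, were worth 0.276 to 0.296 CPM. Hbxip itself was at 15.5 to 31.0 FPKM in the KO libraries and 38.5 to 41.8 FPKM in the WT libraries, so its reads did not vanish and the knockout is taken from the labels. The pluripotency gene Pou5f1, which defines embryonic stem cells, was abundant in every library, at 648 to 895 FPKM in KO and 655 to 821 FPKM in WT. In bulk RNA, fewer cells of a type and less RNA per cell cannot be told apart. Differences were tested with edgeR over the 13990 genes with a mean of at least 0.5 FPKM, and called at an adjusted p below 0.05. Values after ± are standard errors of the log2 fold change derived from the test. Of the 7 genes 6 were tested. Elf5 fell short of the filter, and Cdx2 passed it only through its WT LIF withdrawal library, so that its calls were partly built in.

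Against WT, pluripotent KO cells had 3 of the 6 tested factors called higher (Hand1, Gata3 and Tead4) and 1 called lower (Tfap2c), where 51.8% of all tested genes were called, 25.5% higher and 26.3% lower. After LIF withdrawal 1 was called higher (Tead4) and 4 lower (Cdx2, Tfap2c, Tfap2a and Hand1), where 35.8% of all tested genes were called, 18.4% higher and 17.4% lower. In embryoid bodies 1 was called higher (Tead4) and 2 lower (Tfap2c and Cdx2), where 37.2% were called, 19.4% higher and 17.7% lower. Over the 3 cultures together 1 was called higher and 3 lower, where 27.1% were called, 13.3% higher and 13.8% lower. With so many genes of all kinds called, these counts by themselves do not set the factors apart. The same shares over all tested genes stand behind the counts given below for other gene lists in these comparisons.

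Between cultures, the factors moved in both genotypes. With LIF withdrawal 1 of the 6 was called higher and 3 lower in KO, where 59.2% of all tested genes were called, 30.2% higher and 29.0% lower. In WT 3 were called higher and 2 lower, where 20.5% were called, 11.6% higher and 8.90% lower. With DESeq2, 8.78% of the genes were called in WT and the Tfap2c and Tfap2a calls were lost (adjusted p = 0.450 and 0.223). From pluripotent culture to embryoid bodies 1 was called higher and 3 lower in KO, where 61.0% were called, 31.0% higher and 30.0% lower. In WT 2 were called higher and 1 lower, where 38.6% were called, 19.7% higher and 18.9% lower. The LIF withdrawal response differed between KO and WT for 3 factors, Hand1, Cdx2 and Tfap2a, each lower in KO, where 32.3% of all tested genes differed, 17.5% higher and 14.9% lower. The embryoid body response differed for 2, Hand1 and Gata3, each lower in KO, where 41.8% differed, 22.4% higher and 19.5% lower.

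**Figure D2:**
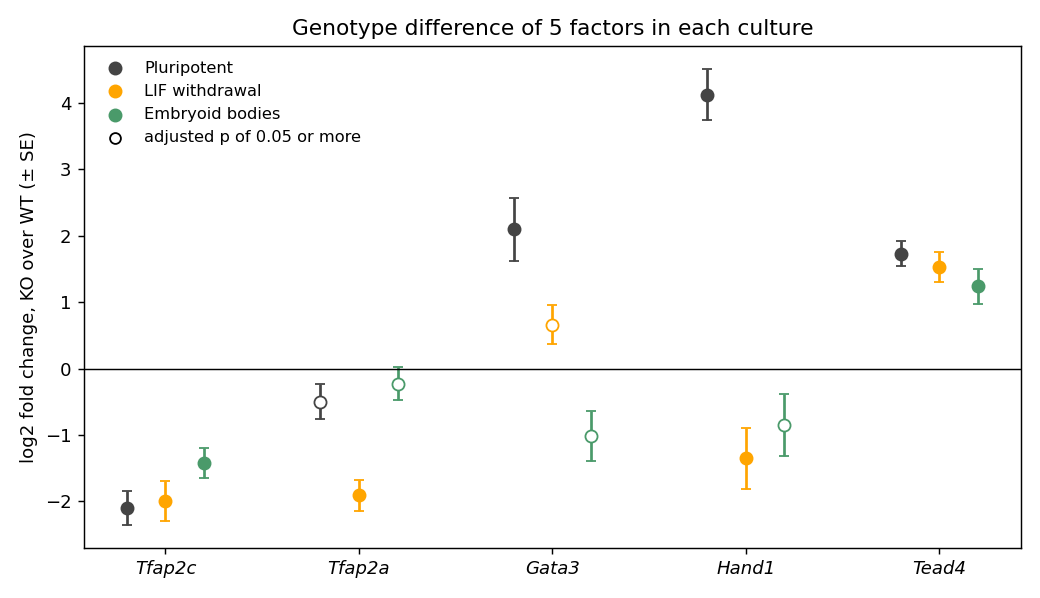
Log2 fold change of KO over WT (vertical axis, points with ± SE) for 5 of the factors in the 3 cultures; filled points have an adjusted p below 0.05. Tfap2c is below 0 and Tead4 above 0 in all 3, while Hand1 runs from 4.13 in pluripotent culture to -1.35 after LIF withdrawal.

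Tead4, the TEA-domain factor at the head of the trophectoderm programme, was higher in KO cells in every culture. In pluripotent culture it was at 13.6 and 11.6 FPKM in KO and 4.17 FPKM in WT. After LIF withdrawal it was at 5.24 and 4.51 FPKM in KO and 1.79 FPKM in WT, and in embryoid bodies at 2.69 and 3.0 FPKM in KO and 1.15 FPKM in WT. Each KO pair lay above its WT library, and the members of a pair differed by at most 1.17-fold. The log2 fold change of KO over WT was 1.73 ± 0.19 in pluripotent culture (adjusted p = 1.12e-05), 1.52 ± 0.23 after LIF withdrawal (adjusted p = 0.000228) and 1.24 ± 0.26 in embryoid bodies (adjusted p = 0.00288). Over the 3 cultures it was 1.52 ± 0.15 (adjusted p = 0.000307).

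Both genotypes lowered Tead4 as they left pluripotent culture. In KO the change was -1.40 ± 0.14 with LIF withdrawal (adjusted p = 4.69e-06) and -2.28 ± 0.15 in embryoid bodies (adjusted p = 1.76e-07). In WT it was -1.20 ± 0.26 (adjusted p = 0.00634) and -1.79 ± 0.28 (adjusted p = 0.000383). The responses of KO minus WT differed by -0.21 ± 0.30 for LIF withdrawal (adjusted p = 0.633) and -0.50 ± 0.34 for embryoid bodies (adjusted p = 0.258), neither past the threshold. The level thus ran in the order KO pluripotent, KO LIF withdrawal, WT pluripotent, KO embryoid bodies, WT LIF withdrawal and WT embryoid bodies. WT pluripotent culture, at 4.17 FPKM, lay closer to the lower KO library after LIF withdrawal, at 4.51 FPKM, than that library lay to the other of its pair.

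Tead4 was a minor TEAD gene by level, and its share of the family grew in KO. It made up 15.8% to 19.7% of the summed FPKM of Tead1 to Tead4 in KO and 4.98% in WT pluripotent culture. After LIF withdrawal the share was 4.90% to 5.95% in KO and 1.68% in WT, and in embryoid bodies 3.22% to 3.30% in KO and 0.881% in WT. Tead2, the most abundant TEAD gene, went the other way: in embryoid bodies it was at 59.6 and 65.6 FPKM in KO and 108 FPKM in WT, with -0.78 ± 0.10 (adjusted p = 8.74e-05). Tead3 was at 5.30 and 5.77 FPKM in KO and 10.2 FPKM in WT there, with -0.88 ± 0.16 (adjusted p = 0.000862). In pluripotent culture Tead3 was instead higher in KO, by 0.75 ± 0.22. Tead1 was higher in KO by 0.30 ± 0.10 after LIF withdrawal and 0.59 ± 0.11 in embryoid bodies, like Tead4, but had -0.30 ± 0.10 in pluripotent culture.

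**Figure D3:**
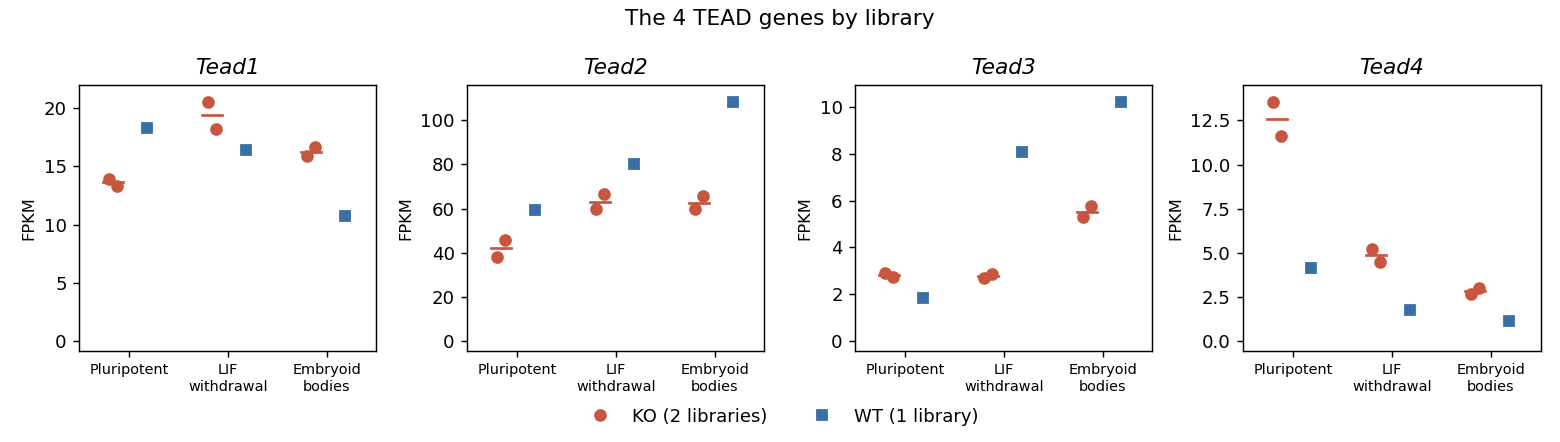
FPKM (vertical axes, from 0, a separate scale per gene) of the 4 TEAD genes, drawn as in the plot of the 7 factors. Tead4 is higher in KO in all cultures, while Tead2 lies lower in KO in all of them and reaches 108 FPKM in WT embryoid bodies.

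Among the Hippo pathway genes and TEAD coactivators upstream of Tead4 function, 4 were called higher and 2 lower of 14 tested in KO embryoid bodies. Over all tested genes 37.2% were called there, 19.4% higher and 17.7% lower. The median log2 fold change of the list was -0.06 beside 0.00 over all tested genes. Lats2, a kinase that restrains YAP, was higher in KO (1.82 ± 0.22, adjusted p = 5.92e-05), as was Nf2, an activator of that kinase (0.50 ± 0.11, adjusted p = 0.00343). Amot, a scaffold that binds YAP at junctions, was at 1.10 and 1.41 FPKM in KO and 8.61 FPKM in WT (-2.78 ± 0.19, adjusted p = 6.64e-07), and Yap1 had -0.37 ± 0.09 (adjusted p = 0.00673). In pluripotent culture 3 were called higher and 4 lower, and after LIF withdrawal 4 and 2, where 51.8% and 35.8% of all tested genes were called.

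TEAD-YAP target genes did not share one direction in KO. Of the 4 tested of 5 listed, 2 were called higher and 1 lower in pluripotent KO cells, 0 higher and 3 lower after LIF withdrawal, and 0 higher and 2 lower in embryoid bodies, with medians of 0.27, -0.95 and -0.67. Ccn1, a matricellular protein gene induced by YAP, was at 11.9 and 10.2 FPKM in KO and 3.58 FPKM in WT pluripotent culture. After LIF withdrawal it was at 5.18 and 4.27 FPKM in KO and 35.1 FPKM in WT, and in embryoid bodies at 2.45 and 2.23 FPKM in KO and 15.1 FPKM in WT. Ccn2, its relative, had -1.09 ± 0.10 in embryoid bodies (adjusted p = 4.15e-06). Ajuba (-0.12 ± 0.09, adjusted p = 0.299) and Axl (-0.24 ± 0.24, adjusted p = 0.458) did not pass the threshold there.

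Cdx2, the caudal-type homeobox factor that commits cells to trophectoderm, was switched on in differentiating WT cells and stayed near 0 in KO. After LIF withdrawal it had 0 and 0 counts in KO and 87 counts in WT, or 3.82 FPKM in WT. In embryoid bodies it had 1 and 0 counts in KO and 25 counts in WT, or 0.05 and 0 FPKM in KO and 1.12 FPKM in WT. In pluripotent culture 0 and 2 counts in KO stood beside 5 counts in WT. Against a limit of 3 counts over the 2 KO libraries, and taking the WT count as exact, Cdx2 was at least 59.1-fold lower in KO after LIF withdrawal (adjusted p = 1.83e-05). The 95% counting interval of that KO-to-WT ratio, which adds the error of the WT count, ended at 0.0213, a looser bound. For embryoid bodies the KO-to-WT ratio was 0.0198 with a 95% counting interval of 0.000482 to 0.121 (adjusted p = 0.00105). The pluripotent ratio was 0.207 (0.0197 to 1.26) and fell short of a call (adjusted p = 0.183). The intervals are exact binomial, and intervals and limits cover counting error only.

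Within WT, Cdx2 rose 17.4-fold with LIF withdrawal (7.17 to 54.8, adjusted p = 0.00129) and 5.13-fold in embryoid bodies (1.93 to 17.2, adjusted p = 0.0315). Cdx2 was tested only because its WT LIF withdrawal library lifted it past the filter. The Cdx2 calls within WT and against WT were therefore partly built in. DESeq2 (adjusted p = 0.271) and limma with a pseudocount of 0.1 (adjusted p = 0.0889) did not call the rise in embryoid bodies. Within KO no response could be measured, since all 6 KO libraries together held 3 counts. The LIF withdrawal response differed between KO and WT (adjusted p = 0.0379). That call was lost without KO pluripotent replicate 2, which held the 2 pluripotent counts, and without either KO LIF withdrawal library (adjusted p = 0.0575 and 0.066). The difference for embryoid bodies was not called (adjusted p = 0.197), except with limma on log2(FPKM + 1) (adjusted p = 0.0224).

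The AP-2 factors are described as regulators of Cdx2, and RefSeq's promoter sequence of Cdx2 is printed here with Gata3's because both hold the AP-2 motif. Each runs from 250 bases before to 50 bases after the annotated start, 5′ to 3′ on the gene's own strand, in build GRCm38.p6. Capitals mark matches on either strand to the motif GCCNNNGGC of AP-2 factors and, in Gata3, to CCGGAA of ETS factors such as ELF5. The Cdx2 window is at chr5:147307200-147307499 on the minus strand and the Gata3 window at chr2:9878551-9878850 on the minus strand.
Cdx2 promoter: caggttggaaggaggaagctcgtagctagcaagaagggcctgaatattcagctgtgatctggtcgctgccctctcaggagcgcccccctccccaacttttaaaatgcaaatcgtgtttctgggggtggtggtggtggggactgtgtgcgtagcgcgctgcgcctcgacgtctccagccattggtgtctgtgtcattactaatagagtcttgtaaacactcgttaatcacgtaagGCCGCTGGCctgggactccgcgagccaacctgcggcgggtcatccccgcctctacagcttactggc
Gata3 promoter: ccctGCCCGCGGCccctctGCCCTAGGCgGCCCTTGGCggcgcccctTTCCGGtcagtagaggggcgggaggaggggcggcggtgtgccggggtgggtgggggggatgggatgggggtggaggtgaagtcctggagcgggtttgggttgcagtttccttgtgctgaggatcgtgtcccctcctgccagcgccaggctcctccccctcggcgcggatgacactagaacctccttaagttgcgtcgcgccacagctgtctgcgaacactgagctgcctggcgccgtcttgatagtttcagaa

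The Cdx2 window held 1 AP-2 match and the Gata3 window 3, where 16.6% of 32851 RefSeq promoter windows of the same length held at least 1. Both windows were picked for holding this motif, so the share tests nothing. Their GC content was 57.3% for Cdx2 and 67.3% for Gata3, beside a median of 52.7% over all windows. The ETS motif, of which Gata3 had 1, was in 14.9% of windows. Neither window held GGAATG of TEAD factors, found in 14.7% of windows, or AGATAA of GATA factors, in 11.2%, which says only that these letters are not there. The same holds for TTTATG of CDX factors (11.9%), CATCTG of HAND factors (17.2%) and CTTTGA of LEF-TCF factors (16.0%). A match describes the sequence and shows no binding. The AP-2 motif was in neither window of Tfap2a nor of Elf5, each of which has 2 annotated starts in the table. No promoter sequence was at hand for Tfap2c, Hand1 and Tead4, so these were not scanned.

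Cdx2 also marks the posterior primitive streak, and T, Evx1, Mixl1 and Fgf8 on the list of streak genes rose with it in differentiating WT cells. Cdx1 did not, at 7.78 FPKM in WT pluripotent culture, 3.72 FPKM after LIF withdrawal and 2.93 FPKM in embryoid bodies. Tbx6 stayed at 0.60 to 0.71 FPKM in WT, and Wnt3a and Cdx4 did not exceed 0.34 and 0.12 FPKM there. Of the 8 genes on that list 6 were tested. After LIF withdrawal 0 were called higher and 4 lower in KO, and in embryoid bodies 0 higher and 5 lower, with median log2 fold changes of -3.22 and -4.86 beside 0.00 for all tested genes in both. Evx1, one of the genes called lower in both, passed the filter only through the WT LIF withdrawal library, so its calls were partly built in. The list summed to 4.55 to 4.82 FPKM in KO and 38.2 FPKM in WT after LIF withdrawal, and to 3.11 to 3.43 FPKM in KO and 66.2 FPKM in WT embryoid bodies. In pluripotent culture, where 2 were called higher and 0 lower with a median of 0.28, the sums were 14.1 to 14.7 FPKM in KO and 10.15 FPKM in WT. The 2 were Cdx1 and Fgf8. Fgf8 had only 2 and 6 counts in KO and 0 in WT there, and the 95% counting interval of its KO-to-WT ratio began at 0.883. Cdx4 was at 0 in WT after LIF withdrawal and Fgf8 at 0 in WT pluripotent culture, and no other streak gene was at 0 in all libraries of a group. Whether streak cells carried the WT Cdx2 reads was not tested.

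Cdx2 and most of the streak genes named here peaked in different WT cultures. Cdx2 was higher in the WT LIF withdrawal library, at 3.82 FPKM, than in WT embryoid bodies, at 1.12 FPKM. Evx1, a posterior streak homeobox gene, likewise had 2.99 FPKM and 1.97 FPKM. T (brachyury) had 17.5 FPKM after LIF withdrawal and 24.0 FPKM in embryoid bodies, and Fgf8, a streak ligand, 10.7 FPKM and 30.8 FPKM. Mixl1, a homeobox gene of nascent mesendoderm, had 2.5 FPKM and 5.67 FPKM. In KO embryoid bodies T was at 0.05 and 0.18 FPKM and Evx1 at 0.03 FPKM in both libraries. Cdx1, a paralog of Cdx2 in the caudal streak, was not switched off in KO: it was at 11.1 and 12 FPKM in KO and 7.78 FPKM in WT pluripotent culture, and at 1.34 and 1.46 FPKM in KO and 2.93 FPKM in WT embryoid bodies.

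**Figure D4:**
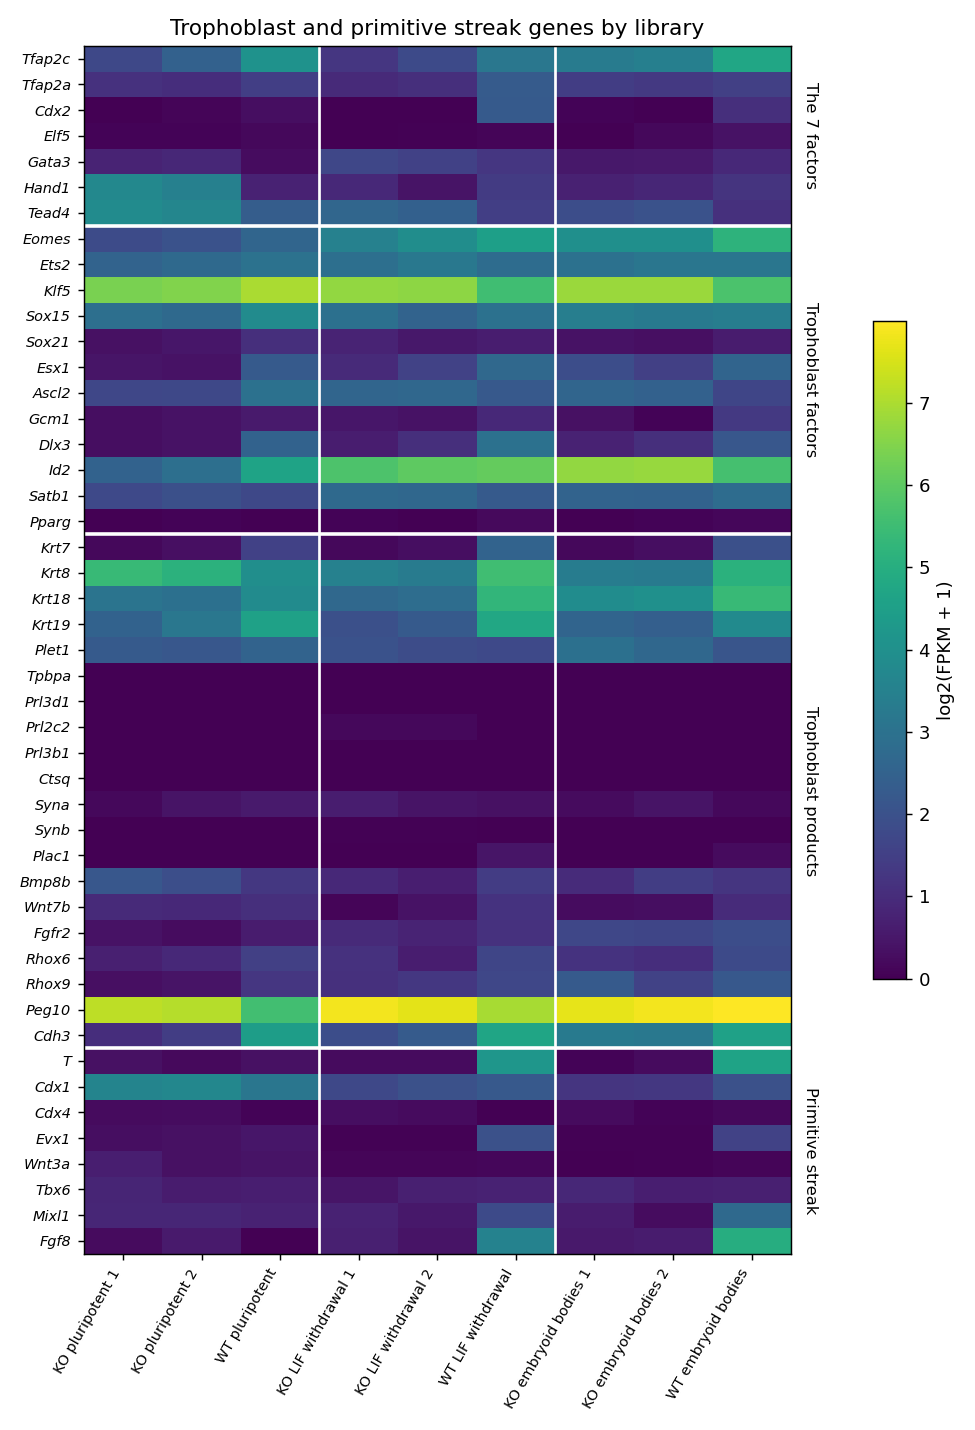
Log2(FPKM + 1) (colour scale) in the 9 libraries (columns, KO left of WT within each culture) for the 7 factors, other trophoblast factors, trophoblast products and primitive streak genes (rows). Cdx2, T, Evx1, Mixl1 and Fgf8 are brighter in the differentiating WT columns than in the KO columns beside them, and Tpbpa, Prl3d1, Prl3b1 and Ctsq are at 0 throughout.

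Tfap2c, the AP-2 factor that is needed for the trophectoderm and for germ cell precursors, was the most abundant of the 7 factors in every WT library and was lower in KO throughout. In pluripotent culture it was at 2.34 and 4.6 FPKM in KO and 15.9 FPKM in WT. After LIF withdrawal it was at 1.41 and 2.46 FPKM in KO and 8.01 FPKM in WT, and in embryoid bodies at 9.07 and 9.98 FPKM in KO and 25.3 FPKM in WT. Each WT library lay above its KO pair, although the pluripotent KO libraries differed from each other 1.97-fold and the LIF withdrawal pair 1.75-fold. The log2 fold change was -2.10 ± 0.26 in pluripotent culture (adjusted p = 3.42e-05), -2.00 ± 0.30 after LIF withdrawal (adjusted p = 0.000251) and -1.42 ± 0.23 in embryoid bodies (adjusted p = 0.000414). The embryoid body difference was not called by limma with a pseudocount of 0.1 FPKM (adjusted p = 0.0574).

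The level of Tfap2c in the 2 genotypes changed alike in direction between cultures, lowest after LIF withdrawal and highest in embryoid bodies. In KO, embryoid bodies were above pluripotent culture by 1.37 ± 0.23 (adjusted p = 0.000291), and in WT by 0.70 ± 0.26, short of the threshold (adjusted p = 0.0537). The WT change was called in the replicate block fit (adjusted p = 0.00412) and without any 1 of the 4 KO libraries of pluripotent culture and LIF withdrawal (adjusted p = 0.0146 to 0.0395). LIF withdrawal gave -0.87 ± 0.29 in KO (adjusted p = 0.0210) and -0.97 ± 0.28 in WT (adjusted p = 0.0315). The KO pluripotent and LIF withdrawal ranges overlapped, and the KO call was lost without KO pluripotent replicate 2 (-0.32) or KO LIF withdrawal replicate 1 (-0.56). It was also lost with DESeq2 (adjusted p = 0.125), as was the WT call (adjusted p = 0.450). Both were lost with limma on FPKM, at adjusted p = 0.108 and 0.110 in KO and 0.155 and 0.249 in WT. The responses of KO minus WT differed by 0.10 ± 0.41 for LIF withdrawal (adjusted p = 0.887) and 0.68 ± 0.35 for embryoid bodies (adjusted p = 0.145), neither past the threshold. The embryoid body difference was called in the replicate block fit, at 0.70 (adjusted p = 0.0262), and without KO pluripotent replicate 2, at 1.22 (adjusted p = 0.00986).

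Germ cell precursors express Tfap2c too, and their list did not keep one direction. In pluripotent culture 1 of its 6 genes was called higher and 4 lower in KO, with a median of -0.99 and sums of 20.7 to 21.6 FPKM in KO and 44.5 FPKM in WT. In embryoid bodies 3 were called higher and 1 lower, with a median of 0.86 and sums of 37.5 to 38.8 FPKM in KO and 33.3 FPKM in WT. There Prdm1 (1.33 ± 0.17, adjusted p = 8.89e-05) and Prdm14 (1.12 ± 0.19, adjusted p = 0.000597), regulators of germ cell specification, were higher in KO, as was the receptor gene Kit (0.61 ± 0.16, adjusted p = 0.0105). Dppa3 was at 0.37 and 0.36 FPKM in KO and 9.35 FPKM in WT (-4.64 ± 0.47, adjusted p = 1.26e-05). After LIF withdrawal 0 were called higher and 2 lower, with a median of -0.12 and sums of 27.5 to 33.3 FPKM in KO and 35.2 FPKM in WT. None of the 6 genes was at 0 in a group, and the part of such cells in the Tfap2c difference was not tested.

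Tfap2a, the AP-2 factor of surface ectoderm and neural crest that is also made in trophoblast, differed mainly after LIF withdrawal. It was then at 0.95 and 1.09 FPKM in KO and 3.92 FPKM in WT, a log2 fold change of -1.91 ± 0.24 (adjusted p = 5.85e-05). In pluripotent culture it was at 1.22 and 1.08 FPKM in KO and 1.80 FPKM in WT (-0.50 ± 0.27, adjusted p = 0.137), and in embryoid bodies at 1.71 and 1.5 FPKM in KO and 1.87 FPKM in WT (-0.23 ± 0.26, adjusted p = 0.524). Apart from the WT LIF withdrawal library, the 8 libraries lay between 0.95 and 1.87 FPKM. WT cells raised Tfap2a with LIF withdrawal by 1.19 ± 0.27 (adjusted p = 0.00828), while KO cells had -0.22 ± 0.24 (adjusted p = 0.443), and these responses differed by -1.41 ± 0.36 (adjusted p = 0.0105). DESeq2 called neither the WT rise (adjusted p = 0.223) nor the difference (adjusted p = 0.178). In embryoid bodies the change was 0.35 ± 0.23 in KO (adjusted p = 0.198) and 0.08 ± 0.29 in WT (adjusted p = 0.862). The call over the 3 cultures, -0.93 ± 0.30 (adjusted p = 0.0477), rested on the WT LIF withdrawal library, since the value without it was -0.36 (adjusted p = 0.277). In the other settings that lost it, leaving out any 1 of the KO libraries among them, the adjusted p was between 0.0519 and 0.122.

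Some surface ectoderm and amnion markers differed between KO and WT in each culture. After LIF withdrawal 0 were called higher and 4 lower of 4 tested out of 8 listed, with a median of -1.21 and sums of 15.3 to 16.6 FPKM in KO and 37.8 FPKM in WT. In embryoid bodies 1 was called higher and 1 lower, with a median of -0.35 and sums of 24.4 to 27.6 FPKM in KO and 33.7 FPKM in WT. There Wnt6, an epithelial WNT ligand, was higher in KO (2.59 ± 0.40, adjusted p = 0.000316) and Grhl2, a grainyhead factor of epithelia, lower (-0.68 ± 0.17, adjusted p = 0.00686), while Grhl3 had -0.34 ± 0.14 (adjusted p = 0.0686) and Msx2 -0.35 ± 0.31 (adjusted p = 0.409). In pluripotent culture 1 was called higher and 1 lower, with a median of -0.27 and sums of 26 to 27.4 FPKM in KO and 23.0 FPKM in WT. The gene called higher there was Wnt6 (2.34 ± 0.22, adjusted p = 4.52e-06). The gene called lower was Grhl2 (-3.095 ± 0.29, adjusted p = 3.84e-06), which had -1.45 ± 0.17 after LIF withdrawal. Trp63 was at 0 in WT pluripotent culture and after WT LIF withdrawal, and Krt14 in WT embryoid bodies. Their part in the Tfap2a difference was not tested.

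Neural crest markers had 1 called higher and 2 lower of 4 tested out of 5 listed after LIF withdrawal, 1 and 0 in pluripotent culture, and 0 and 2 in embryoid bodies, with medians of -0.55, -0.14 and -0.93. After LIF withdrawal the WT sum lay within the KO range of 18.1 to 20.5 FPKM. The sums were 20.5 to 23.6 FPKM in KO and 14.5 FPKM in WT pluripotent culture, and 16.0 to 17.5 FPKM in KO and 24.0 FPKM in WT embryoid bodies. Foxd3, which stem cells express too, made up most of each sum, and Pax3 was at 0 in WT pluripotent culture. In embryoid bodies Ets1 (-1.47 ± 0.33, adjusted p = 0.0043) and the crest factor Sox10 (-1.62 ± 0.45, adjusted p = 0.0137) were lower in KO, while Foxd3 had -0.39 ± 0.15 (adjusted p = 0.0648) and Snai2 1.11 ± 0.48 (adjusted p = 0.0903).

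Tfap2c made up most of the AP-2 family by level, at 62.1% to 77.2% of the summed FPKM of the 5 genes in KO and 86.4% in WT pluripotent culture. Tfap2e, a paralog, was also low in KO, at 0.23 and 0.13 FPKM in KO and 1.60 FPKM in WT embryoid bodies (-3.11 ± 0.53, adjusted p = 0.000703). It passed the filter only through the WT LIF withdrawal library, at 2.53 FPKM, so that its call, like those of Cdx2, was partly built in. Tfap2b and Tfap2d did not exceed 0.05 FPKM in any library. GENCODE places 3 antisense genes over Tfap2a exons, and the strandedness of the counting is not given. Gm26688, the only one of them with values here, did not exceed 0.12 FPKM.

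Hand1, the bHLH factor of giant cells and of extraembryonic and cardiac mesoderm, was raised only in KO pluripotent culture. It was there at 12.4 and 10.1 FPKM in KO and 0.70 FPKM in WT, that is 243 and 195 counts in KO and 14 counts in WT. The log2 fold change was 4.13 ± 0.39 (adjusted p = 4.31e-06), the widest of the 6 tested factors in that culture. After LIF withdrawal Hand1 was at 0.88 and 0.34 FPKM in KO and 1.64 FPKM in WT, and in embryoid bodies at 0.67 and 0.80 FPKM in KO and 1.32 FPKM in WT. In both differentiating cultures the WT library lay above the KO pair, opposite to pluripotent culture. The difference after LIF withdrawal was -1.35 ± 0.46 (adjusted p = 0.0360), and that in embryoid bodies, -0.85 ± 0.47, was not called (adjusted p = 0.176).

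The Hand1 difference between KO and WT after LIF withdrawal was not called with DESeq2 (adjusted p = 0.112) or limma (adjusted p = 0.0531 and 0.0698). It was also lost without KO LIF withdrawal replicate 2, the lower of a pair that differed 2.59-fold, where the log2 fold change was -0.81 (adjusted p = 0.174). Leaving out either KO embryoid body library put it just above 0.05 (adjusted p = 0.0521 and 0.0522). Over the 3 cultures Hand1 had 0.37 ± 0.95 (adjusted p = 0.811), a mean of opposite differences. Without pluripotent culture, an alternative chosen after seeing the data, it was -1.10 (adjusted p = 0.0453).

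Hand1 fell on differentiation in KO cells and had no called change in WT cells. Within KO the change was -4.23 ± 0.30 with LIF withdrawal (adjusted p = 2.70e-07) and -4.04 ± 0.29 in embryoid bodies (adjusted p = 3.25e-07). Within WT it was 1.25 ± 0.53 (adjusted p = 0.121) and 0.94 ± 0.56 (adjusted p = 0.204). The responses differed by -5.48 ± 0.62 for LIF withdrawal (adjusted p = 7.23e-05) and -4.98 ± 0.65 for embryoid bodies (adjusted p = 0.000113). The 4 differentiated KO libraries and the 3 WT libraries lay together between 0.34 and 1.64 FPKM, and their order within that range rests on 7 to 33 counts.

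Extraembryonic and cardiac mesoderm markers had 2 called higher and 0 lower of 3 tested out of 8 listed in each of the 3 cultures, with medians of 1.93, 2.48 and 1.48. Their sums were 213 to 226 FPKM in KO and 27.1 FPKM in WT pluripotent culture, 48.5 to 58.6 FPKM in KO and 11.1 FPKM in WT after LIF withdrawal, and 51.5 to 66.5 FPKM in KO and 14.2 FPKM in WT embryoid bodies. Bmp4, a ligand that induces extraembryonic mesoderm, made up most of each sum, at 223 and 210 FPKM in KO and 25.3 FPKM in WT pluripotent culture. In embryoid bodies Bmp4 was still higher in KO (2.34 ± 0.18, adjusted p = 1.80e-06), as was the receptor gene Kdr (1.48 ± 0.45, adjusted p = 0.0209), whereas Hand1 had no called difference there. Nkx2-5, which passed the filter only through KO embryoid body replicate 1, had -0.42 ± 0.78 (adjusted p = 0.708). Of the untested markers, Tbx4 lay lower in KO in all 3 cultures, at 0.09 and 0.28 FPKM in KO and 2.08 FPKM in WT after LIF withdrawal. Mesp1 was at 0.36 and 0.17 FPKM in KO and 1.43 FPKM in WT embryoid bodies. Tbx20 lay higher in KO pluripotent culture, at 1.38 and 0.94 FPKM in KO and 0.19 FPKM in WT. Hand2, the paralog of Hand1, did not exceed 0.04 FPKM in any library and Foxf1 did not exceed 0.08 FPKM. The part of mesoderm cells in the Hand1 level was not tested.

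Gata3, the GATA factor that acts beside CDX2 downstream of TEAD4, changed direction between cultures. It was at 0.74 and 0.87 FPKM in KO and 0.20 FPKM in WT pluripotent culture, where KO was higher by 2.10 ± 0.47 (adjusted p = 0.00274). After LIF withdrawal it was at 2.24 and 1.94 FPKM in KO and 1.38 FPKM in WT (0.66 ± 0.29, adjusted p = 0.101). In embryoid bodies it was at 0.42 and 0.46 FPKM in KO and 0.88 FPKM in WT (-1.01 ± 0.38, adjusted p = 0.0531). The KO pair lay above its WT library in pluripotent culture and after LIF withdrawal and below it in embryoid bodies. The last difference sat at the threshold, and passed it with a filter at a mean of 1 FPKM (adjusted p = 0.0468), in a replicate block fit (adjusted p = 0.0498) or without the WT pluripotent library (adjusted p = 0.0497). Over the 3 cultures Gata3 had 0.42 ± 0.45 (adjusted p = 0.539), and 1.14 without the WT embryoid body library (adjusted p = 0.0417).

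Gata3 peaked after LIF withdrawal in both genotypes. It rose there by 1.34 ± 0.26 in KO (adjusted p = 0.000663) and 2.78 ± 0.48 in WT (adjusted p = 0.00172), responses that differed by -1.44 ± 0.57, which was not called (adjusted p = 0.0756). From pluripotent culture to embryoid bodies KO had -0.97 ± 0.32 (adjusted p = 0.0195) and WT 2.13 ± 0.52 (adjusted p = 0.0065), and these responses differed by -3.11 ± 0.61 (adjusted p = 0.00172). The KO fall was not called with DESeq2 (adjusted p = 0.158), with limma on log2(FPKM + 1) (adjusted p = 0.0537), or without KO pluripotent replicate 2 (-0.87), KO embryoid body replicate 1 (-0.90) or KO embryoid body replicate 2 (-1.05). The WT rise was not called with DESeq2 (adjusted p = 0.0715). The WT pluripotent library that both WT changes rest on held 7 counts. Gata2, a paralog that is also a trophoblast regulator, was at 0.18 and 0.43 FPKM in KO and 2.09 FPKM in WT embryoid bodies (-2.76 ± 0.40, adjusted p = 0.000218). GENCODE places the antisense gene Gm13256 and the same-strand gene 9230102O04Rik over Gata3 exons, and 9230102O04Rik did not exceed 0.14 FPKM.

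Elf5, the ETS factor that marks committed trophoblast stem cells and is held silent by promoter methylation in embryonic stem cells, was barely detected. It had 1 and 1 counts in KO and 3 counts in WT pluripotent culture, 0 and 1 counts in KO and 2 counts in WT after LIF withdrawal, and 0 and 3 counts in KO and 7 counts in WT embryoid bodies. The highest level was 0.32 FPKM, in WT embryoid bodies. For embryoid bodies the KO-to-WT ratio was 0.212 with a counting interval of 0.0354 to 0.929. In a fit of all 20213 genes with at least 1 count, its log2 fold change there was -2.12 ± 1.21 (adjusted p = 0.241), and a difference was not detectable at this depth. Elf3, an epithelial relative, was the main ELF gene by level, at 15.5 to 28.6 FPKM in KO and 27.2 to 36.8 FPKM in WT.

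Other trophoblast lineage factors were mostly lower in pluripotent KO cells, where 0 were called higher and 8 lower of 10 tested out of 12 listed, with a median of -1.24 beside -0.01 over all tested genes. Sox21, among the 8, passed the filter only through the WT pluripotent library, at 1.13 FPKM. After LIF withdrawal 2 were called higher and 3 lower, and in embryoid bodies 3 and 3, with medians of -0.03 and -0.23. Eomes, a T-box factor of trophoblast stem cells and of the streak, was at 14.8 and 14.9 FPKM in KO and 35.0 FPKM in WT embryoid bodies (-1.24 ± 0.13, adjusted p = 1.47e-05). Dlx3, a placental homeobox factor, was at 0.22 and 0.30 FPKM in KO and 4.76 FPKM in WT pluripotent culture, and in embryoid bodies had -1.95 ± 0.33 (adjusted p = 0.000592). Klf5, which acts in both trophectoderm and stem cells, was higher in KO embryoid bodies (1.06 ± 0.09, adjusted p = 3.41e-06), as was Id2, an inhibitor of bHLH factors (1.08 ± 0.12, adjusted p = 3.51e-05).

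The products that define mature trophoblast were at or near 0. Tpbpa, Prl3d1, Prl3b1 and Ctsq, markers of spongiotrophoblast, giant and later placental cells, were at 0 in all 9 libraries, and Prl2c2, Synb and Plac1 did not exceed 0.36 FPKM. Of the 20 listed products 12 were tested, and 3 were called higher and 5 lower in pluripotent KO cells, 1 and 7 after LIF withdrawal, and 1 and 6 in embryoid bodies. Their medians were -0.89, -1.72 and -1.23 beside -0.01, 0.00 and 0.00 over all tested genes. The sums were 197 to 210 FPKM in KO and 132 FPKM in WT pluripotent culture, 232 to 261 FPKM in KO and 274 FPKM in WT after LIF withdrawal, and 259.6 to 281 FPKM in KO and 381 FPKM in WT embryoid bodies, with the imprinted gene Peg10 the most abundant in every library.

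The 4 products with the smallest adjusted p in embryoid bodies were epithelial genes that other epithelia share. Krt8 and Krt18, paired simple-epithelium keratins, had -1.90 ± 0.14 (adjusted p = 1.39e-06) and -1.49 ± 0.13 (adjusted p = 5.14e-06) in embryoid bodies. Krt7, a trophoblast keratin, had -3.93 ± 0.52 (adjusted p = 9.54e-05), and Cdh3, placental cadherin, -1.45 ± 0.16 (adjusted p = 2.01e-05). Krt8 behaved differently in pluripotent culture, where it was at 40.8 and 34.4 FPKM in KO and 14.4 FPKM in WT, while Krt18 was at 7.36 and 6.80 FPKM in KO and 13.5 FPKM in WT.

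Pluripotency factors, which oppose trophoblast genes, stayed abundant. Pou5f1 had 0.12 ± 0.09 in KO embryoid bodies (adjusted p = 0.321) and Sall4 -0.16 ± 0.08 (adjusted p = 0.136), while Sox2 (0.35 ± 0.09, adjusted p = 0.00869) was higher in KO and Nanog (-0.38 ± 0.12, adjusted p = 0.0218) lower. Of these 4 genes 0 were called higher and 3 lower in pluripotent KO cells, and 1 higher and 1 lower after LIF withdrawal and in embryoid bodies, with medians of -0.43, 0.03 and -0.02. Visceral and primitive endoderm markers had 2 called higher and 0 lower of 3 tested out of 7 listed in pluripotent culture and after LIF withdrawal, and 1 and 1 in embryoid bodies, with medians of 1.17, 1.73 and 0.60. Hnf4a was higher in KO embryoid bodies (4.18 ± 0.25, adjusted p = 2.92e-07), Gata6 was lower (-2.13 ± 0.43, adjusted p = 0.0022) and Gata4 had 0.60 ± 0.31 (adjusted p = 0.144). The sums of the endoderm list were 6.81 to 8.17 FPKM over the KO libraries and 2.52 to 3.36 FPKM over the WT libraries. Hnf4a made up most of each KO sum, at 4.72 to 5.69 FPKM in KO and 0.26 to 1.49 FPKM in WT. Sox17, Afp, Apoa1 and Ttr were not tested and did not exceed 0.49 FPKM in any library.

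The genes most like each factor over the 9 libraries were found by Pearson's r on log2(FPKM + 1) among 12009 named genes with a mean of at least 1 FPKM. This is a description over libraries that share genotype and culture. Tead4 was closest to Ccnb2 (r = 0.996), Gpatch3 and Zfp607b, and Tfap2c to Nxt2 (r = 0.992), Ppp1r16b and Guca1a. Hand1 was closest to Prelid1 (r = 0.993), Nol12 and Tinagl1, the last at 37.7 and 34.4 FPKM in KO and 2.96 FPKM in WT pluripotent culture. Cdx2 was closest to Phf20l1 (r = 0.978), Bnipl and Tagln, a smooth muscle actin-binding gene at 1.41 and 1.40 FPKM in KO and 47.9 FPKM in WT after LIF withdrawal. Tfap2a was closest to Igdcc4 (r = 0.966), Msl3l2 and Zfp623. Gata3 had looser partners, Kif4 (r = 0.912), Actg1 and Amotl2, the last a YAP-binding gene of the Hippo list.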

How the data were processed

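RNA-seq was carried out on 9 libraries of E14 cells, Hbxip-/- (KO, 2 per culture) and wild type (WT, 1 per culture). The submitters' processing notes name Bowtie2 and the genome build mm8. How reads were assigned to genes, on which strand and with which annotation is not given in the sources used here. Per the file headers, the deposited tables hold an expected count (an estimated count) and an FPKM value per gene, both made by the authors, and genes without counts are not listed. Counts were rounded, and unlisted genes set to 0. Of 20287 gene IDs, 20234 matched the RefSeq table of GRCm38 by ID and 9 by accession. The table served for names, and coordinates are given only for the promoter windows of Cdx2 and Gata3.

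edgeR 4.0.16 (quasi-likelihood, TMM factors 0.94 to 1.04) was fitted with 1 mean per group (3 residual degrees of freedom), or with culture and genotype as additive terms for the 3 cultures together (5). That additive spread pools the variation of the genotype difference between cultures with the smaller spread within KO pairs. p-values were adjusted by Benjamini-Hochberg over 13990 genes. Standard errors were obtained by dividing the log2 fold change by the root of edgeR's F. Alternatives used DESeq2 1.42.0, limma 3.58.1 on log2(FPKM + 1) and log2(FPKM + 0.1), RLE factors, other filters, a replicate block and each library left out. R was 4.3.3. The members and lists were chosen with earlier results of these data known. From each list up to 4 genes with the smallest adjusted p in embryoid bodies are named with statistics; other genes named, and other cultures' values, were chosen after their values were seen.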

Additional observations from a re-analysis of the deposited data

Results flagged for a closer look

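Changes between cultures that differed between KO and WT by the test of the difference itself are listed here. For LIF withdrawal, the KO response minus the WT response was -5.48 for Hand1, -7.37 for Cdx2 and -1.41 for Tfap2a on the log2 scale. For embryoid bodies it was -4.98 for Hand1 and -3.11 for Gata3. The fitted value for Cdx2 rests on KO groups of 2 and 0 counts and is no measure of size. In each of these 5, the KO response lay below the WT response. Over all tested genes 17.5% were called higher and 14.9% lower for LIF withdrawal, and 22.4% and 19.5% for embryoid bodies. All 5 use the same pluripotent libraries, with 1 WT library among them, so they are not independent. DESeq2 did not call the Tfap2a difference (adjusted p = 0.178). The Cdx2 call was lost without KO pluripotent replicate 2 or either KO LIF withdrawal library. No group held 4 or more libraries, so single libraries could not be screened for outlying values.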

How the results depend on the processing

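Of 888 recomputed member values, 835 kept both direction and call status, or stayed uncalled whatever their sign. With the direction kept, 39 lost a call and 12 gained one, and 2 turned round. Both turns were Hand1 over the 3 cultures, at -1.11 without the WT pluripotent library and -1.10 without pluripotent culture, against 0.37; with 1 library left out it ran from -1.11 to 1.54. With DESeq2 the number of genes called was 4796 for KO versus WT in pluripotent culture, 2843 for LIF withdrawal and 2890 for embryoid bodies, where edgeR called 7248, 5010 and 5202. It was 1228 for the WT response to LIF withdrawal (edgeR 2866), 2929 for the WT embryoid body response (5398), and 2374 and 3286 for the differences between responses (4524 and 5854). With 1 library left out, the count over the 3 cultures ran from 2544 to 5895, against 3787, and reached 5895 without the WT pluripotent library. DESeq2 gave no adjusted p for Cdx2 in the WT response to LIF withdrawal or in the difference between those responses. The deviations of KO replicate 1 from replicate 2 correlated at 0.183 between pluripotent culture and LIF withdrawal. They correlated at 0.0221 between pluripotent culture and embryoid bodies, and at 0.0708 between LIF withdrawal and embryoid bodies. Noise in single libraries lowers such values, so they cannot decide whether the replicate numbers pair the KO libraries. A replicate block changed the count of calls to 7828, 5790 and 6070 for KO versus WT in the 3 cultures and to 3160 over all of them. The cause of these shifts was not tested. With 1 WT library per culture, no comparison with WT has a WT replicate behind it, and Elf5 and Cdx2 in KO lie at the counting limit.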
